A study of Mus musculus with 6 samples.

Results

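Ribosome-bound RNA was examined for the genes that encode the proteins of the cytosolic ribosome, 85 of the 12968 genes in the table. A gene was taken as a member if its symbol began with Rpl or Rps followed by a digit, or was Rplp0, Rplp1, Rplp2 or Rpsa. Symbols of the S6 kinases (10 in the table) and symbols that carry -ps, a pseudogene mark (43 in the table), were left out. Of the 85 members, 49 bear symbols of the large (60S) subunit and 36 symbols of the small (40S) subunit. The symbols include 76 standard ribosomal protein genes, 5 paralogs (Rpl22l1, Rpl36al, Rpl7l1, Rps27l and Rps4l), 3 further copies (Rpl37rt, Rps3a2 and Rps3a3) and Rps19bp1, which encodes a binding partner of Rps19 and not a ribosomal protein. RefSeq annotates Rps3a2, Rps3a3 and Rps4l as pseudogenes. Rpl29 was not analysed here.

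The libraries came from 3 mice whose middle cerebral artery was occluded for 1 h (MCAO, left occluded hemisphere) and from 3 control mice with no occlusion (left hemisphere), all killed after 3 days. Each library is the polyA RNA of 1 animal, pulled down with tagged ribosomes from a middle section of the hemisphere. In the RiboTag allele, which served in both groups, the tag sits on the ribosomal protein Rpl22 wherever Cre recombinase has acted. The title names astrocytes, while the labels used here state no Cre driver, strain, sex or age. Values are scaled read counts: reads per gene divided by 1 factor per library, with everything under 1 set to 1. They hold no correction for gene length, so levels are compared between groups and not between genes. Depth in the table ran from 882263 to 4567615 reads in MCAO libraries and from 1538901 to 9519548 reads in controls. No member was at the floor in any library.

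Each ribosome carries a single copy of most of its proteins, and the stalk proteins P1 and P2 are the best known exception. Most ribosomal protein mRNAs start with a C followed by a run of pyrimidines, the 5' terminal oligopyrimidine (TOP) tract, through which mTOR and the RNA-binding protein Larp1 control their loading onto ribosomes. A pulldown of ribosomes therefore reads both how much of such an mRNA is present and how much of it is bound, and these data do not separate them. Reads from short, near-identical genes and their many processed pseudogenes can also be shared in ways that depend on the counting step, for which these sources name no tool.

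The starts of 12 members are printed to set those with the largest changes beside those with the smallest at the annotated first base, chosen by rank of change and not by sequence. Each line gives 10 bases before the RefSeq start and 20 from it on, read 5' to 3' on the gene's strand in build GRCm38.p6. Capitals mark a run of at least 8 C or T bases that touches the 10 bases on either side of the start; that of Rpl4 begins before the printed bases. For Rpl22 and Rps21 the first of 2 annotated starts is shown. The start in the Rps2 window lies downstream of the RefSeq gene start used for its span, chr17:24718121. The first 6 are the members with the largest changes among those that rose and have a RefSeq window, the next 4 have the smallest changes of all members with a window, and the last 2 are the tagged gene and its paralog.
Rpl39 (chrX:37085203-37085232, minus strand): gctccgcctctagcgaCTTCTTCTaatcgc
Rplp0 (chr5:115559457-115559486, plus strand): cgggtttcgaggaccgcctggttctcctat
Rps26 (chr10:128626487-128626516, minus strand): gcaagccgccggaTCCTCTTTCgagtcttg
Rps2 (chr17:24720053-24720082, plus strand): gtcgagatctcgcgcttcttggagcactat
Rps21 (chr2:180257369-180257398, plus strand): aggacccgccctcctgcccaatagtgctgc
Rpl41 (chr10:128549149-128549178, minus strand): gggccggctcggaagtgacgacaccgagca
Rpl15 (chr14:18270967-18270996, minus strand): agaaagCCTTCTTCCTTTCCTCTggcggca
Rpl4 (chr9:64173377-64173406, plus strand): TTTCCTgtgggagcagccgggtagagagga
Rps6 (chr4:86857348-86857377, minus strand): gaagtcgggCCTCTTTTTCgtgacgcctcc
Rpl5 (chr5:107900518-107900547, plus strand): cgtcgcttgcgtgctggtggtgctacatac
Rpl22 (chr4:152325716-152325745, plus strand): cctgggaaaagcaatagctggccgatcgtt
Rpl22l1 (chr3:28805498-28805527, plus strand): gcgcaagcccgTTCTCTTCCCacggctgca

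Such a pyrimidine run was found in 27 of the 63 members with a RefSeq window (42.9%), against 14.2% of 9367 tested genes with a window. Among members the run was present in 6 of 16 that rose and in 21 of 47 that were not called. The median log2 change was 0.56 in members with the run and 0.55 in members without it. Rpl15, the member with the smallest change, has a run of 17 pyrimidines at its start, and Rplp0, among those with the largest, has none. Other letters known from these promoters were searched on both strands of the whole window of 300 bases. The ETS factor core CCGGAA was in 49.2% of member windows and 27.6% of all windows, the box A core TCGCGAGA in 15.9% and 2.33%, the YY1 core AAGATGG in 14.3% and 7.39%, the TATA box TATAAA in 9.52% and 6.46%, and the GC box GGGCGG in 61.9% and 66.4%. None of these words contains another. These are matches of letters, not binding sites, and annotated starts can lie some bases away from the start used in brain.

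Ribosomal protein genes were higher in ribosome-bound RNA after MCAO, as a family and by a similar amount in both subunits. Together the 85 members took 1.43%, 1.74% and 1.28% of all scaled reads in MCAO 1, 2 and 3, against 1.01%, 0.938% and 1.11% in controls 1, 2 and 3. The lowest MCAO library lay above the highest control. The mean was 1.48 ± 0.235% after MCAO and 1.02 ± 0.0839% in controls (SD, n = 3 each), a ratio of 1.45. Counting error was small beside this spread: the share of recovered reads had exact Clopper-Pearson 95% intervals of 1.71% to 1.77% in MCAO 2 and 0.923% to 0.953% in control 2, the shallowest library of each group. MCAO 2 was the highest MCAO library and control 2 the lowest control. Without these 2 libraries the share averaged 1.35% after MCAO and 1.06% in controls.

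**Figure D1:**
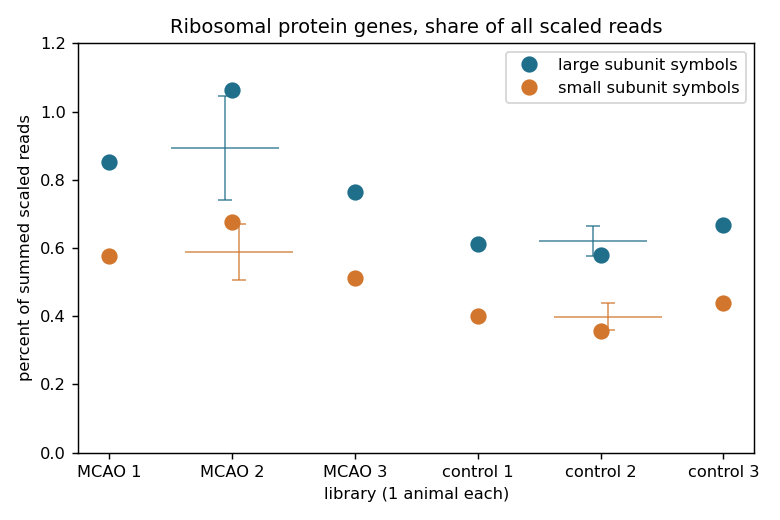
Percent of all scaled reads (y axis, from 0) taken by large and small subunit symbols in each library (points, 1 animal each), with the group mean and SD (n = 3) as bars. Every MCAO point lies above every control point of the same subunit, MCAO 2 is highest and control 2 lowest.

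All 85 members had a positive log2 change, from 0.05 in Rpl15 to 0.98 in Rpl39, with a median of 0.55, a fold of 1.47. Among all 12549 genes tested the median was -0.01 and 48.7% were positive. By limma's test over all these genes, 23 members rose (27.1%; adjusted p under 0.05), where 2.3% of all tested genes were called higher. At an unadjusted p under 0.05 there were 66 members higher, where 10.1% of all genes were. None fell by limma or edgeR, which called 0.789% and 1.08% of all genes lower. In 62 members (72.9%) all 3 MCAO libraries stood above all 3 controls, against 12.4% of all tested genes, and in 0 members they stood below, against 12.5%. The edgeR test on reads recovered from the values called 30 members higher, all 23 of limma's among them, where 3.06% of all genes were called. Below, a gene that rose or was called passed limma's test unless edgeR is named. The members share libraries and are not independent of each other: MCAO 2 was the highest of the 6 libraries in 71 members and control 2 the lowest in 62.

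Which members passed the test depended on single animals, while the direction did so in few members. With 1 library left out, 2 to 13 members were called, and Rpl39 and Rplp0 were called in all 6 cases. The fewest calls came without MCAO 2 (2 members), and 7 members were called without MCAO 1, 13 without MCAO 3, and 5, 7 and 11 without controls 1, 2 and 3. The median log2 change over members lay between 0.43 and 0.67 in these cases, and at least 84 of the 85 members stayed positive in each. With both MCAO 2 and control 2 left out the median was 0.36, 82 members were positive and 10 were called. With no intensity trend in the variance, 1 member (Rpl39) was called.

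**Figure D2:**
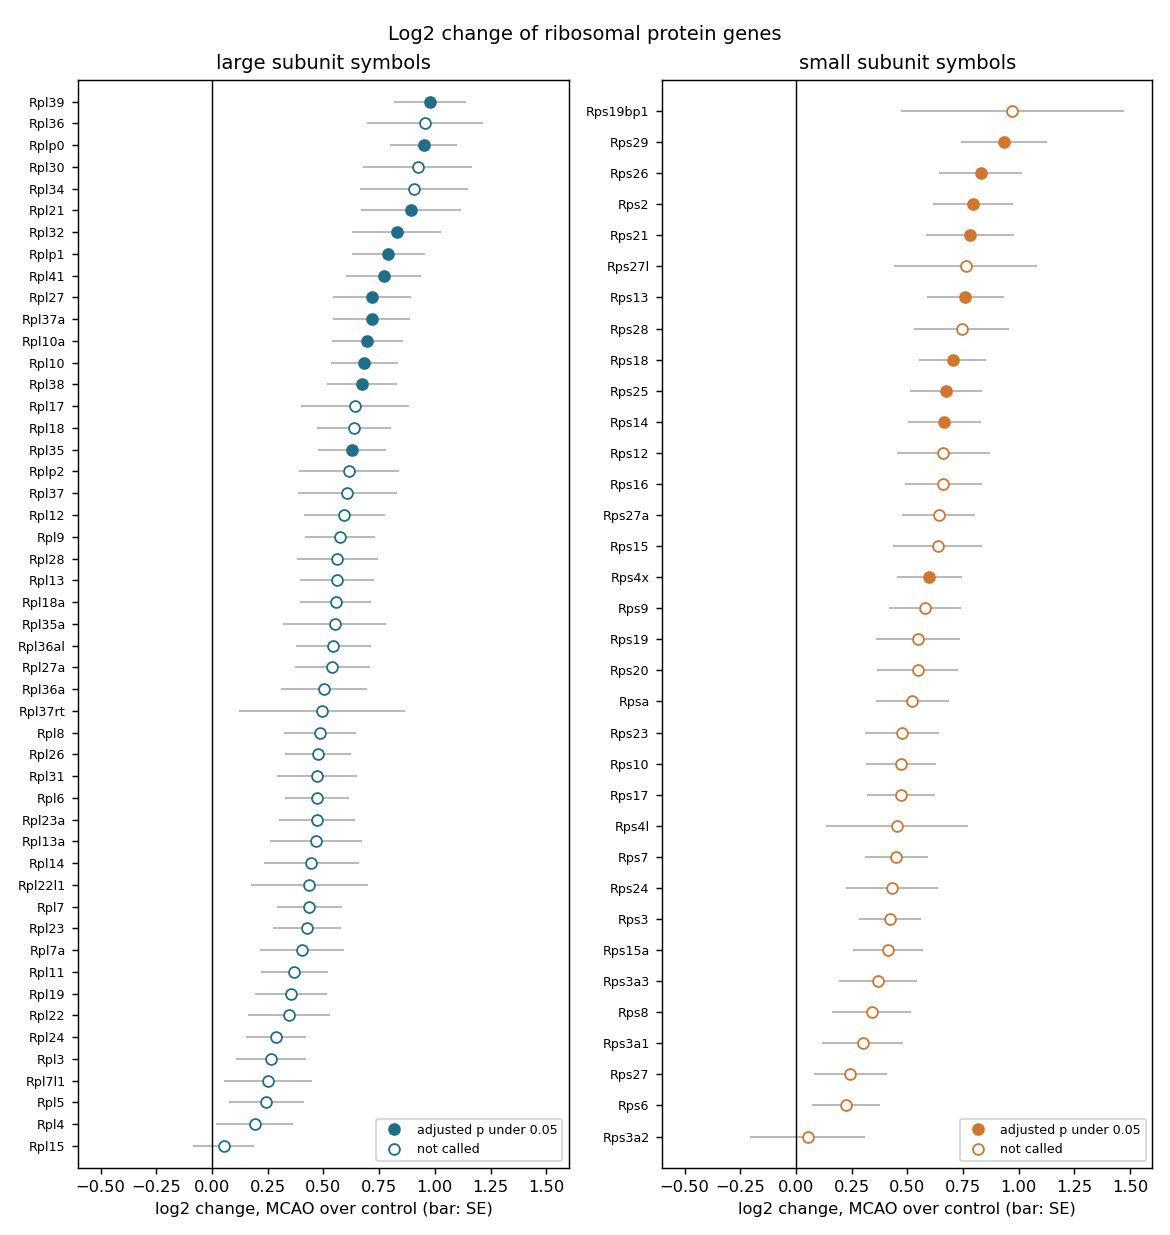
Log2 change of MCAO over control for the members shown by name (x axis; bars are SE, 3 libraries per group), sorted within the large subunit symbols (left) and the small (right). Filled points passed the test over all genes; all points lie right of 0, between 0.05 and 0.98.

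Gene length moved with the change, and the members are short genes. Over 11935 tested genes with a RefSeq gene span (introns included), split by span into 10 bins of equal size, the median log2 change of genes other than members was 0.29 in the shortest bin, 0.14 and 0.10 in the next 2 bins and -0.26 in the longest. All 85 members fell in the 3 shortest bins, with 60 in the shortest, 20 in the second and 5 in the third. Their own medians there were 0.60, 0.48 and 0.35, each above that of the other genes in the same bin. After the trend on span was removed from each library, the member median was 0.28, 79 of 85 were positive and 2 were called, Rplp0 (log2 change 0.70, adjusted p = 0.0167) and Rpl39 (0.67, adjusted p = 0.038). The family share then averaged 1.42% after MCAO and 1.16% in controls. It was taken over the 11935 genes with a span, while the shares above used all genes in the table. Whether RNA quality or library preparation plays a part in this was not tested; mRNA lengths were not used here.

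**Figure D3:**
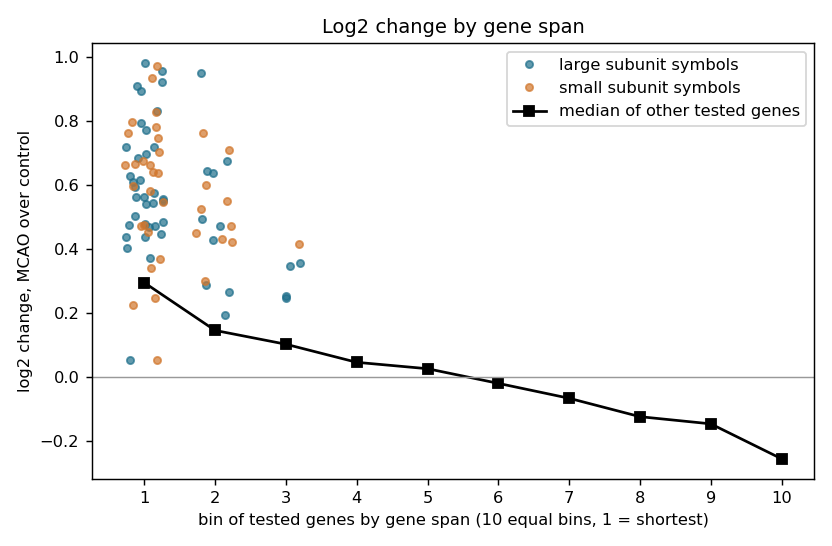
Log2 change of MCAO over control (y axis) in 10 equal bins of tested genes ordered by gene span (x axis, 1 = shortest). Black squares are the medians of genes other than members, which run from 0.29 down to -0.26; coloured points are members, all in the first 3 bins and most of them above the squares.

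Markers of other cells moved in the same libraries. Microglia markers rose in 12 of 18 genes, where limma called 2.3% of all tested genes higher. The microglia markers summed to 2616 to 3592 scaled reads after MCAO and 728 to 973 in controls. Oligodendrocyte markers rose in 7 of 12 (12684 to 16111 against 8483 to 9652), and both blood myeloid markers in the table, of 10 listed, rose. Endothelial and mural markers gave 0 calls in 7 by limma or edgeR, with 1, which was lower, at an unadjusted p under 0.05. Of 15 astrocyte markers 4 were positive, with a median log2 change of -0.24. By limma Gfap rose and 0 fell, and edgeR also called Gli3 lower (log2 change -1.09, limma adjusted p = 0.068, edgeR adjusted p = 0.0234); both were chosen after their values were seen. Astrocyte markers summed to 31868 to 42884 after MCAO and 28181 to 45297 in controls, and neuron markers, also present in these pulldowns, to 25846 to 30692 and 28047 to 32770. No listed marker in the table was at the floor in all libraries of a group. MCAO 2, the highest in ribosomal protein genes, had the lowest microglia sum of the 3 MCAO libraries and the highest oligodendrocyte sum. The oligodendrocyte sums were 14080, 16111 and 12684 in MCAO 1, 2 and 3, the same order as the family share. In controls 1, 2 and 3 the sums were 8483, 9652 and 9497, and the order differed. Control 2 had the highest oligodendrocyte sum of the controls and the lowest family share. The part of these cells in the family's change was not tested, and more cells of a type cannot be told apart from more RNA per cell in such samples.

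The stalk of the large subunit, a flexible arm of P proteins that recruits the elongation factors, held 1 of the 2 members called with any single library left out. Rplp0, its base, had 525, 600.3 and 456 scaled reads in MCAO 1, 2 and 3, against 256, 273 and 284 in controls 1, 2 and 3. The groups lay far apart and the controls were close together (log2 change 0.95, SE 0.15, limma adjusted p = 0.00268). Rplp1 had 839.5, 1141 and 786 after MCAO, against 514, 491 and 573 in controls, and rose by 0.79 (SE 0.16, adjusted p = 0.0164). Rplp2, the partner of Rplp1 in the stalk dimer, had 265, 448 and 236 after MCAO, against 209, 159.7 and 234 in controls. MCAO 2 stood alone here, MCAO 3 was barely above control 3, and the change of 0.61 (SE 0.22) was not called (adjusted p = 0.157). Without MCAO 2 and control 2 it was 0.18 for Rplp2 and 0.86 for Rplp0.

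In the rest of the large subunit 10 further genes rose. Rpl39, a very small protein that lines the tunnel through which the new chain leaves, had 208, 208 and 204 scaled reads after MCAO, against 100.2, 99.3 and 115 in controls. The 3 MCAO animals were almost equal, with a mean of 207 ± 2.22 against 105 ± 8.64 in controls (SD, n = 3 each), and the change was 0.98 (SE 0.16, adjusted p = 0.00393). Rpl41, among the smallest proteins known, had 687, 914 and 586 after MCAO, against 443, 392 and 426 in controls (0.77, SE 0.17, adjusted p = 0.0239). Rpl10, which joins late in the making of the subunit and is needed for subunit joining, had 519, 641 and 474 after MCAO, against 335, 321 and 353 in controls, and rose by 0.68 (SE 0.15). Rpl38, known in mice for its part in the translation of Hox mRNAs, had 239, 252 and 212 after MCAO, against 153, 149 and 137 in controls (0.67, SE 0.16). The other members of the large subunit that rose were Rpl21 (0.89), Rpl32 (0.83), Rpl27 (0.72), Rpl37a (0.72), Rpl10a (0.70) and Rpl35 (0.63), with adjusted p between 0.0321 and 0.0455. Rpl36 was second only to Rpl39 in this subunit by size of change, at 0.96 (SE 0.26), but its libraries varied more, with 190.0, 361 and 204 after MCAO against 134, 86.9 and 163 in controls, and it was not called by limma (adjusted p = 0.0626), while edgeR called it (adjusted p = 0.046).

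Among the large subunit genes with the smallest changes were several of high level. Rpl15 had 369, 386 and 398 scaled reads after MCAO, against 378, 342 and 392 in controls, so that the groups overlapped (0.05, SE 0.14, adjusted p = 0.880). Rpl4, whose loop reaches into the exit tunnel, had 1374, 1938 and 1255 after MCAO, against 1257, 1268 and 1405 in controls, where only MCAO 2 stood out (0.19, SE 0.17). Rpl5, which carries the 5S rRNA into the subunit together with Rpl11 and binds the p53 regulator Mdm2, had 873, 1232 and 836 after MCAO, against 744, 878 and 827 in controls (0.24, SE 0.17). Rpl3, at the site of peptide bond formation, had 1251, 1580.0 and 1128 after MCAO, against 1011, 1089 and 1166 in controls (0.26, SE 0.16, adjusted p = 0.383). Of these 4 genes Rpl15 and Rpl4 had a log2 change of -0.01 and -0.02 without the shallowest library of each group.

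In the small subunit 11 genes rose, the following among them. Rps29, a zinc-binding protein of the head, had 492, 582 and 342 scaled reads after MCAO, against 240.3, 208 and 281 in controls, with no overlap (0.93, SE 0.19, adjusted p = 0.018). Rps26, which lies near the exit of the mRNA channel, had 260.0, 333 and 222 after MCAO, against 178, 126 and 152 in controls (0.83, SE 0.19). Rps2, at the entry of that channel, had 287, 423 and 316 after MCAO, against 202, 163 and 220.3 in controls (0.80, SE 0.18). Rps18 had 359, 423 and 357 after MCAO, against 237, 248 and 213 in controls (0.70, SE 0.15, adjusted p = 0.0203). Rps4x, the X-linked S4 gene, rose by 0.60 (SE 0.15), and Rps21 (0.78), Rps13 (0.76), Rps25 (0.67) and Rps14 (0.67) rose with adjusted p between 0.030 and 0.0469.

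Other small subunit genes were closer to no change. Rps6, the substrate of the S6 kinases and a common readout of mTOR activity, had 728, 793 and 617 scaled reads after MCAO, against 555, 575 and 700.2 in controls. MCAO 3 lay below control 3, and the change of 0.22 (SE 0.15) was not called (adjusted p = 0.454). Rpsa, which is also known as the laminin receptor precursor, had 1488, 1978 and 1324 after MCAO, against 1082, 1068 and 1136 in controls, without overlap (0.52, SE 0.16, adjusted p = 0.102). Rps27a, made as a fusion with ubiquitin, had 444, 541 and 362 after MCAO, against 302, 264 and 287 in controls (0.64, SE 0.16, limma adjusted p = 0.0511), and was called by edgeR (adjusted p = 0.0328).

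**Figure D4:**
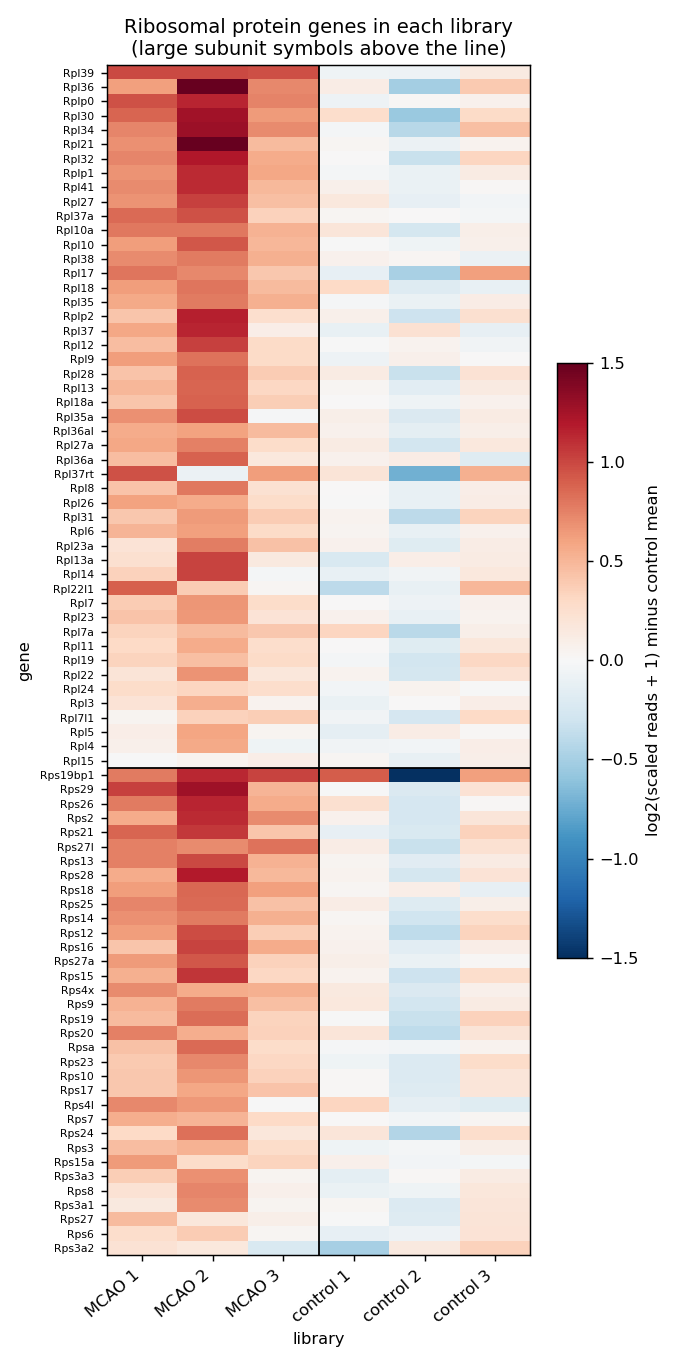
Members (rows; large subunit symbols above the line, small below, sorted by log2 change) in each library (columns), as log2(scaled reads + 1) minus the mean of the 3 controls. MCAO columns are red for nearly all members and deepest in MCAO 2; control 2 is the bluest column, and the Rps19bp1 row is set apart by its low value there.

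The subunits differed little. Large subunit symbols took 0.852%, 1.06% and 0.765% of scaled reads in MCAO 1, 2 and 3, against 0.613%, 0.581% and 0.667% in controls. Small subunit symbols took 0.578%, 0.675% and 0.512% after MCAO, against 0.401%, 0.357% and 0.439% in controls. The ratio of large to small subunit reads was 1.51 ± 0.0539 after MCAO and 1.56 ± 0.0584 in controls (SD, n = 3 each), and the groups overlapped. The median log2 change was 0.55 over the 49 large subunit symbols, 12 of them called, and 0.59 over the 36 small subunit symbols, 11 of them called. The difference of these medians, large minus small, was -0.04, and it changed sign with single libraries left out, between -0.08 and 0.02. Within each subunit the members ranged widely beside that gap, with an SD of log2 change of 0.21 in the large and 0.20 in the small, where a single gene had a median SE of 0.17 in either subunit.

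The share of each member in the family's reads is given here as description. As a percent of the summed member reads of each library, 13 members (15.3%) were higher in all 3 MCAO libraries than in all controls, and 5 (5.88%) were lower. The shares sum to a constant, so these counts describe the members relative to each other. Of all tested genes 12.4% stood above and 12.5% below without overlap, in scaled reads and not in shares of a family. Beside these shares of all genes, neither count is read here as a result about the members. How many members 3 against 3 libraries would separate by chance was not tested. The 13 were Rpl39, Rplp0, Rps29, Rpl30, Rpl21, Rpl32, Rps26, Rps2, Rplp1, Rpl41, Rps13, Rps28 and Rpl10, and the 5 were Rpl15, Rpl4, Rps6, Rpl5 and Rpl3. Rplp0 made up 1.32 ± 0.0555% of the family's reads after MCAO and 0.975 ± 0.0801% in controls (SD, n = 3 each). Rpl15 made up 0.977 ± 0.177% after MCAO and 1.33 ± 0.0337% in controls, and Rpl4 3.77 ± 0.259% and 4.70 ± 0.224%. Rpsa was level, at 3.96 ± 0.159% after MCAO and 3.94 ± 0.214% in controls. Across the 85 members, which share the same libraries, the log2 change had a Spearman correlation of -0.24 with gene span and -0.32 with the mean scaled reads; across the 76 standard genes that with span was -0.37.

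Rpl22, which carries the tag, and Rpl22l1 are paralogs that can take the same place in the large subunit, and in mice loss of Rpl22 is known to raise Rpl22l1. Rpl22 had 222, 311 and 219 scaled reads in MCAO 1, 2 and 3, against 202, 161 and 226 in controls 1, 2 and 3. Control 3 lay above MCAO 1 and 3, and the change of 0.35 (SE 0.19) was not called (limma adjusted p = 0.330). It was 0.21 below the family median, and 0.05 without MCAO 2 and control 2. Rpl22l1 had 169, 118 and 91.9 after MCAO, against 68.8, 83.4 and 128 in controls. Here MCAO 1 was highest and control 3 lay above 2 MCAO libraries (0.44, SE 0.26, adjusted p = 0.383). The ratio of Rpl22 to Rpl22l1 reads was 1.31, 2.63 and 2.38 after MCAO, against 2.93, 1.94 and 1.76 in controls. The 2 groups covered nearly the same range, and the log2 ratio was 1.01 ± 0.54 after MCAO and 1.10 ± 0.386 in controls (SD, n = 3 each; difference -0.09, two-sided exact permutation p = 0.9, where 0.1 is the smallest that 3 against 3 allow). The sign of that difference turned without MCAO 1 (0.22) or control 1 (0.13), and with the span trend removed (0.11). The tagged gene can also be bound as mRNA of any cell with tagged ribosomes, so its level does not measure the tag.

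**Figure D5:**
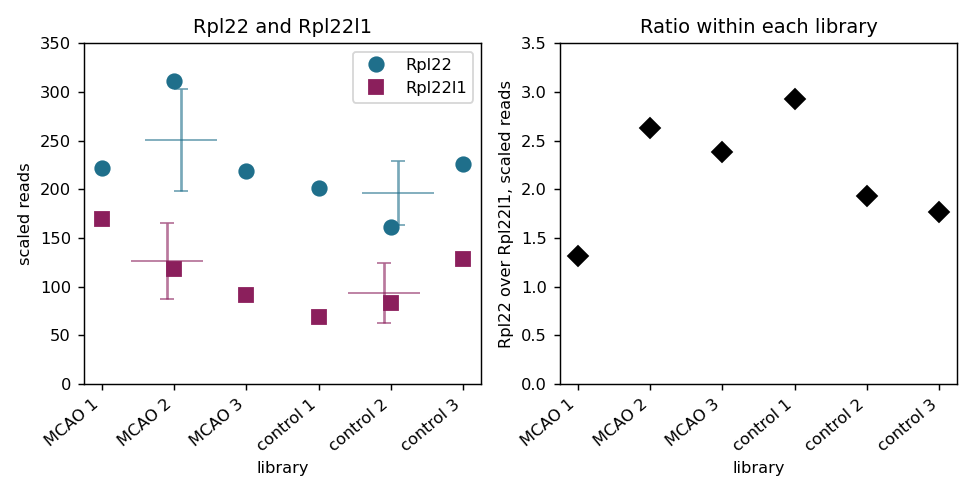
Left, scaled reads of Rpl22 and Rpl22l1 in each library (points) with group mean and SD (n = 3); right, the ratio of Rpl22 to Rpl22l1 reads in each library. The ratio runs from 1.31 to 2.63 after MCAO and from 1.76 to 2.93 in controls, and the groups overlap in all 3 quantities.

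The other paralogs were compared with their parent genes in the same way, 5 pairs in all. Rps27l, a paralog known in human cells as a p53 target, had 35.3, 34.2 and 36.6 scaled reads after MCAO, against 22.2, 16.0 and 24.1 in controls, from as few as 9 reads in control 2 (0.76, SE 0.32, adjusted p = 0.215). Its parent Rps27 had 364, 295 and 278 after MCAO, against 262, 229 and 300.3 in controls (0.24, SE 0.16). The ratio of Rps27 to Rps27l reads was 10.3, 8.64 and 7.60 after MCAO, against 11.8, 14.3 and 12.4 in controls, lower in all 3 MCAO libraries, by 0.52 on the log2 scale (exact permutation p = 0.1, 0.5 adjusted over the 5 pairs). Rpl36a and Rpl36al, which encode nearly the same protein and may share reads, had log2 changes of 0.50 (SE 0.19) and 0.54 (SE 0.17), and Rpl7 and Rpl7l1 of 0.44 (SE 0.15) and 0.25 (SE 0.20). None of the 5 paralogs was called by limma or edgeR, and Rps27l was at an unadjusted p under 0.05, as was Rpl36al. The copies Rpl37rt, Rps3a2 and Rps3a3 were not called either. Rps3a2 had 74.7, 71.5 and 54.6 after MCAO, against 45.2, 71.0 and 81.5 in controls (0.05, SE 0.26). Rps19bp1 had 38.8, 49.8 and 46.0 after MCAO, against 42.6, 7.10 and 34.7 in controls. Its change of 0.97 (SE 0.50, adjusted p = 0.309) rests on 4 reads in control 2 and was 0.13 without both that library and MCAO 2.

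Ribosomal protein genes whose symbols escape the rule moved with the family. Rack1, a scaffold protein on the small subunit, had 730.1, 902 and 788 scaled reads after MCAO, against 531, 633 and 559.9 in controls (0.49, SE 0.15, adjusted p = 0.0883). Fau (0.47, SE 0.16), chosen after its value was seen, encodes a small subunit protein fused to a ubiquitin-like domain. Of the 3 tested genes of this list, all were without overlap between groups and 0 were called by limma or edgeR, with 3 at an unadjusted p under 0.05. The 43 symbols with -ps summed to 2196, 2713 and 1710.1 scaled reads after MCAO, against 1573, 1627 and 1725 in controls. Of the 42 tested, 35 were positive, with a median of 0.53. Among them 2 rose, where 2.3% of all tested genes were called higher. These were Rpl17-ps10 (1.38, SE 0.24) and Rpl17-ps5 (2.04, SE 0.50), chosen after their values were seen. Reads of the rows with -ps may come from the parent genes.

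Lists built around genes that make or regulate ribosomes had smaller median changes than the family. They were not matched to it for gene span or level. Of 48 tested ribosome biogenesis genes 30 were positive, with a median log2 change of 0.16. Limma called 0, with 6 at an unadjusted p under 0.05. The edgeR test called 2, both chosen after their values were seen. These were Lsg1 (0.92), a GTPase of late 60S maturation, and Nhp2 (0.85), a core protein of box H/ACA particles. Of all tested genes, limma called 2.3% higher and 0.789% lower, and edgeR 3.06% and 1.08%. At an unadjusted p under 0.05, 10.1% of all tested genes were higher. Ncl, the nucleolar protein nucleolin and the most abundant of the list, had 899, 2049.7 and 1012 scaled reads after MCAO, against 917, 1080.3 and 991 in controls. MCAO 2 alone was high, and the change was 0.31 (SE 0.24). RNA polymerase I genes had a median of 0.21 over 14 (0 called by limma or edgeR, 2 at an unadjusted p under 0.05), with Ubtf, the polymerase I factor UBF, at 0.21 (SE 0.15). A list of importins, escorts of ribosomal proteins and other genes (Acp1, Naca, Btf3 and Nacad among them) had a median of 0.19 over 16. Limma and edgeR called 0 of them, and 2 were at an unadjusted p under 0.05. The histone chaperone gene Nap1l1 was at 0.21 (SE 0.14). Naca and Btf3 are also in the list of TOP class genes below.

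A list of TOP class genes, mostly translation factors, also had a smaller median change than the family, again without matching for gene span or level. Hnrnpa1, Naca, Btf3 and Tpt1 on this list are not translation factors. Of 18 genes 16 were positive, with a median of 0.26. Limma called 0, with 4 at an unadjusted p under 0.05, and edgeR called Tpt1 (0.54), chosen after its value was seen, a classic TOP mRNA. Eef1a1, the elongation factor that brings tRNA to the ribosome, had 6346, 6762 and 5788 scaled reads after MCAO, against 4952, 4489.8 and 5481 in controls, without overlap (0.34, SE 0.18, adjusted p = 0.322). Genes of the mTOR and TOP control list had a median of -0.08 over 21, with 10 positive and 0 called by limma or edgeR. At an unadjusted p under 0.05 there were 4, all of them lower. These were Tsc1 (-0.43), Larp4 (-0.53), Rps6kb1 (-0.44) and Eif4ebp2 (-0.78), chosen after their values were seen. Of all tested genes edgeR called 3.06% higher, and 10.1% were higher at an unadjusted p under 0.05. The share of all tested genes lower at that threshold was not counted. Eif4g1, a scaffold of the cap-binding complex, was at 0.15 (SE 0.15). The 10 S6 kinase symbols had a median of -0.17, with 2 positive.

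Proteins of the mitochondrial ribosome, a separate particle in the same cells, were set beside the cytosolic family without matching for length or level. Of 78 tested genes 72 were positive, with a median of 0.31, against 0.55 for the 85 cytosolic members. The 78 include Mrpl48-ps (log2 change 0.11), a symbol with the pseudogene mark that was left out of the cytosolic family. Limma called 1 of the 78, edgeR 3, and 23 were at an unadjusted p under 0.05. Among the 23, Mrps2 (log2 change -0.47, SE 0.18), chosen after its value was seen, was lower. Of all tested genes limma called 2.3% higher and edgeR 3.06%, and 10.1% were higher at an unadjusted p under 0.05. The called gene, Mrps6, had 198, 227 and 265 scaled reads after MCAO, against 75.7, 33.7 and 54.3 in controls, a log2 change of 2.12 (SE 0.26, adjusted p = 0.000314) above that of every cytosolic member. In 26 of the 78 all MCAO libraries stood above all controls, against 62 of 85 cytosolic members and 12.4% of all tested genes.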

How the data were processed

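The authors deposited 1 table of normalised signal, 12968 genes by 6 libraries. From the values, the signal is read counts per gene divided by 1 factor per library, with values under 1 set to 1. Divided by each column's step, 99.9% of values above the floor in control 1 and 100% in the other 5 libraries came within 0.1 of a whole read; edgeR used these reads and called 384 genes higher and 136 lower, against 288 and 99 by limma. The submitters' processing notes list mm10, CASAVA 1.8, HISAT2 2.0.11, Partek 6.6, R 3.3.1 and DESeq2 without saying what each did; strand, counting and filters are not stated there.

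The values were tested with limma 3.58.1 in R 4.3.3 (intensity trend, two-sided) on log2(value + 1), which understates changes of low genes, over 12549 genes with a mean of at least 10, with Benjamini-Hochberg adjustment over all of them. All 85 members passed this filter. edgeR 4.0.16 was the alternative on reads. SE is moderated, SD is between animals, and intervals cover counting error only. RNA from repeated pulldowns of an animal was pooled, per the labels. Gene spans, positions and start windows came from RefSeq (GRCm38.p6, the assembly of mm10); all 85 members matched a span and 63 a window, of which the first listed was used. Named genes were both Rpl22 paralogs, called members, the 5 highest and 5 lowest log2 changes, the 5 members with most reads, paralog pairs, a few fixed genes, and up to 2 called or else the most abundant gene of each list. Members and lists were chosen with earlier results of these data known. Replicate numbers follow record order and only name a library. The fit was tested on simulated data. A few genes enter the fits and counts but are not reported here by name.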

Additional observations from a re-analysis of the deposited data

How the results depend on the processing

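No paired analysis was possible because the labels give no replicate numbers that the groups share. Leaving out 1 library at a time gave 144 to 304 called genes in all (387 with all libraries), 2 to 13 called members, a member median of 0.43 to 0.67, a large minus small subunit median log2 change of -0.080 to 0.021, a family share difference of 0.334 to 0.565 percentage points and a difference of the Rpl22 to Rpl22l1 log2 ratio of -0.28 to 0.22. In the same cases Rpl15 lay between -0.0049 and 0.093, Rps3a2 between -0.19 and 0.22 and Ncl between -0.060 and 0.53. With no intensity trend 157 genes and 1 member were called. Library weights gave 1002 called genes and a subunit difference of 0.00433. With the gene span trend removed 2 members were called and the member median was 0.28. The family share difference in that setting, over the 11935 genes with a span only, was 0.264 percentage points. The Rpl22 ratio difference there was 0.11, and Rpl15 (-0.24), Rpl4 (-0.035), Rps27 (-0.20), Rps3a2 (-0.41) and Rps6 (-0.059) turned negative. Without both shallowest libraries 10 members were called, the member median was 0.36 and the subunit difference 0.000557, and Rpl15 (-0.0083) and Rpl4 (-0.017) turned negative. The cause of these shifts was not tested. Of the family, subunit and pair results, 150 values under the alternatives stayed close to those reported, 24 moved further and 3 changed sign, and no member was called lower in any. With 3 animals a group, and 882263 reads in the shallowest library, changes of low members such as Rps27l and Rps4l could not be shown or bounded closely.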
